A study of Sparassis latifolia with 12 samples.

Results

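Fruiting bodies of *Sparassis latifolia*, the cauliflower mushroom, kept for 24 days at 4 ℃ were compared with fresh fruiting bodies. The comparison took the 3 libraries of day 24 (group D) and the 3 libraries of day 0 (group A), chosen by their labels, which are 6 of the 12 libraries of the series. Both groups were of the cultivated strain Minxiu No.1, were packed in oriented polypropylene (OPP) film and were frozen in liquid nitrogen when sampled, so the labels tell them apart by days of storage alone. The other 6 libraries, 3 of day 8 (group B) and 3 of day 16 (group C), were used to say which changes were already present earlier in storage. Whether the 3 libraries of a day came from separate packages is not stated, so the p-values rest on library-to-library spread that may be partly technical. All fruiting bodies came from a single producer, were packed before they were divided at random over the days, and were kept at 4 ℃ from then on.

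A mushroom goes on living after harvest: it respires its sugar reserves, ferments where oxygen runs short and loses water and membrane integrity as it senesces. Ergosterol is the main sterol of fungal membranes and plays the part that cholesterol plays in animals. Long noncoding RNAs (lncRNAs) are transcripts without a long open reading frame, and those that lie beside or opposite a gene (cis) or whose level follows that of a distant gene (trans) are often examined as possible regulators of it.

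Values are FPKM, the number of read fragments per kilobase of transcript, relative to all mapped fragments of the library, divided here by a factor per library that lay between 0.983 and 1.02 (scaled FPKM). Testing took the 10962 of 13103 mRNAs and 1002 of 1003 lncRNAs with FPKM 1 or more in 3 or more libraries. DE, for differentially expressed, means that limma gave the RNA an adjusted p below 0.05 and that its level rose or fell by 1 or more on the log2 scale. Log2 fold changes are on the scale of log2(scaled FPKM + 1), which understates the change of RNAs with low values. The number of reads behind the value of a single RNA is unknown. In whole tissue, fewer cells that make an RNA and less of it per cell cannot be told apart. The identifiers carry no gene names and 0 of 14106 matched the reference gene table, so the tissue could not be checked by marker genes. Product names are taken from the publication.

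Some libraries stood apart from their groups. The third library of day 24 listed 995 lncRNAs and 12789 mRNAs above 0, against 950 and 914 lncRNAs and 11480 and 11133 mRNAs in the first and second, and 989 to 999 lncRNAs and 12636 to 12886 mRNAs on day 0. The results for lncRNAs are therefore given with and without it. In the sequencing summary of the study this library had the lowest share of mapped reads of the 12, and all 3 day 24 libraries had lower shares of mapped and of uniquely mapped reads than every day 0 library. In the comparison of day 24 with day 0, the mapped share and the length of storage cannot be told apart. The second library of day 0 was nearer to the stored ones in several enzymes named below, and the third library of day 8 was the highest of its group for 561 of the 730 mRNAs higher on day 24. Read error rates in that summary were lower on days 8 and 16 than on days 0 and 24. Where days 8 and 16 are set against day 0 or against day 24, read quality and day of storage cannot be told apart. This holds for the calls of days 8 and 16 and for every group below that is defined by them.

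After 24 days, 1475 mRNAs, or 13.5% of those tested, were DE against fresh fruiting bodies, 730 higher (6.66%) and 745 lower (6.8%). Earlier in storage the numbers were larger, with 3340 mRNAs (30.5%) on day 8 and 3436 (31.3%) on day 16. The mRNAs higher on day 24 held 4.84% to 6.58% of the summed FPKM of the fresh libraries and 29.4%, 23.1% and 27.9% of that of the day 24 libraries. Those lower on day 24 held 15.4% to 15.8% when fresh and 2.31% to 2.91% on day 24. The shares describe mRNAs picked by this same comparison and are no test of it. The day 24 libraries lay wholly above the day 0 libraries for 717 of the 730 mRNAs and wholly below them for 714 of the 745. A DE call favours such separation, so these counts are no test of it either. The share of separated libraries over all mRNAs tested is not given here. The median size of the change was 1.48 among higher mRNAs and -1.57 among lower ones on the log2 scale, with 69 mRNAs up by 3 or more and 70 down by 3 or more. Over all mRNAs tested the median log2 fold change was -0.0163. Without the third day 24 library 1312 mRNAs (12%) were DE, of which 1110 were DE in both fits and 0 in opposite directions. Leaving it out lost 365 and gained 41 higher and 161 lower mRNAs. Of these 161, 144 had a mean below 10 scaled FPKM over the 12 libraries.

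The mRNAs of ergosterol synthesis were still low on day 24. All 6 on the list of the study were DE and lower, against 6.8% of all mRNAs tested, with a median log2 fold change of -2.23 against -0.0163 over all mRNAs tested, and all 6 had also been lower on days 8 and 16. None of the 6 was DE between day 24 and day 8 or day 16. The study chose this list on these samples, so its direction is no independent evidence.

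ERG13 (EVM0005394), hydroxymethylglutaryl-CoA synthase at the entry to the mevalonate pathway, had scaled FPKM values of 355, 70.9 and 440.2 in the fresh libraries and 56.8, 35.1 and 56.0 on day 24. The second fresh library lay far below the other 2 and just above those of day 24, so these groups do not overlap but come close. The third day 8 library, at 75.7, lay above that second fresh library. The log2 fold change was -2.19 ± 0.545 (SE; limma adjusted p = 0.0162). ERG13 fell short of the threshold without the first or the third fresh library, without the second library of day 24 and with only the 2 groups in the fit (limma adjusted p between 0.0563 and 0.0717). Without the second fresh library its log2 fold change was -3.01.

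ERG25 (EVM0000111), the methylsterol monooxygenase that takes methyl groups off sterol intermediates, was at 662, 231 and 614 when fresh and 101, 119 and 142 on day 24 (scaled FPKM). Every day 24 library was below every fresh library, and above every library of days 8 and 16, which held 59.7 to 74.7. The log2 fold change was -1.92 ± 0.332 on day 24 (SE; limma adjusted p = 0.00292), against -2.66 and -2.82 on days 8 and 16. The difference of day 24 from day 16 was 0.90 and missed the threshold (limma adjusted p = 0.0574).

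ERG3 (EVM0012147), a sterol desaturase, fell from 177, 70.6 and 267 to 23.7, 19.1 and 41.7 scaled FPKM, a log2 fold change of -2.44 (limma adjusted p = 0.00284). ERG4 (EVM0003490), a sterol reductase that in yeast acts at the end of the pathway, fell from 195, 45.0 and 159 to 22.0, 15.4 and 20.2, a log2 fold change of -2.50 (limma adjusted p = 0.00366). In both, the lowest fresh library was again the second. The remaining ergosterol mRNAs, EVM0000659 and EVM0004880, whose products are not named in the sources used here, had log2 fold changes of -1.72 and -2.27 (limma adjusted p = 0.00684 and 0.00695). Without the second fresh library the log2 fold changes of ERG3, ERG4, EVM0000659 and EVM0004880 were -2.98, -3.15, -2.24 and -2.97.

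The mRNAs of energy supply and fermentation were still high. All 5 on the list were DE and higher on day 24, as on days 8 and 16, against 6.66% of all mRNAs tested, with a median log2 fold change of 2.21 against -0.0163 over all of them. Without the third day 24 library 4 of the 5 were DE, PK being the exception. This list too was chosen by the study on these samples. Its members differed in how their late level stood to the earlier ones.

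Alcohol dehydrogenase 1 (ADH1, EVM0007108), which turns acetaldehyde into ethanol, had 29.1, 247 and 49.0 scaled FPKM when fresh and 4841, 2436 and 2873 on day 24. It had 788, 527 and 1642 on day 8 and 3116, 3743 and 3109 on day 16, so that days 16 and 24 overlap and day 8 lies below both. Its log2 fold change was 5.49 ± 0.686 (SE; limma adjusted p = 0.00056), and day 24 was above day 8 by 1.88 (limma adjusted p = 0.0488), a difference no longer DE without the third day 24 library. The second fresh library was the highest of its group, and without it the log2 fold change was 6.38.

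Pyruvate decarboxylase (PDC, EVM0009327), which makes the acetaldehyde that ADH1 uses, behaved otherwise late in storage. It was at 45.8, 145 and 63.4 when fresh, 1002, 710.5 and 561 on day 8, 803, 417 and 884 on day 16 and 226, 309 and 333 on day 24 (scaled FPKM). The day 24 libraries lay above all fresh ones and below all those of days 8 and 16. Its log2 fold change against fresh was 1.91 ± 0.429 (SE; limma adjusted p = 0.0102), and against days 8 and 16 the differences were -1.36 and -1.22 (limma adjusted p = 0.0259 and 0.0482), the latter not DE without the third day 24 library.

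Formate dehydrogenase (FDH, EVM0012176), which oxidises formate, rose from 26.0, 133 and 26.0 to 565, 668 and 423 scaled FPKM, a log2 fold change of 3.56 (limma adjusted p = 0.00564). Glycerol-3-phosphate dehydrogenase (GPDH, EVM0008918), which joins glycolysis to glycerol and lipid metabolism, rose from 4.63, 9.86 and 6.49 to 39.6, 33.1 and 31.8, a log2 fold change of 2.21 (limma adjusted p = 0.0026). The second fresh library was again the highest of its group in both. Pyruvate kinase (PK, EVM0009831), the last enzyme of glycolysis, had 841, 1385 and 880.4 scaled FPKM when fresh and 4427, 2772 and 4435 on day 24. The groups do not overlap and the log2 fold change was 1.91 (limma adjusted p = 0.0133), but it missed the threshold without the third day 24 library (limma adjusted p = 0.063) and without the first (0.055).

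Of the antioxidant mRNAs, catalase was higher and a glutathione S-transferase lower. Catalase (CAT, EVM0011998), which breaks down hydrogen peroxide, had 8.54, 6.45 and 11.7 scaled FPKM when fresh and 105, 24.4 and 47.0 on day 24. The day 24 libraries all lay above the fresh ones but were far apart, and the log2 fold change of 2.39 (limma adjusted p = 0.0225) missed the threshold without the first or the third of them or without the first fresh library (limma adjusted p = 0.0925, 0.0546 and 0.06). Glutathione S-transferase 2 (GST2, EVM0000573), of a family that couples glutathione to toxic compounds, fell from 340, 798 and 152 to 41.5, 38.1 and 51.2, a log2 fold change of -2.97 (limma adjusted p = 0.00209). Neither CAT nor GST2 was DE between day 24 and day 8 or day 16. The publication describes GST2 as raised during storage, whereas its deposited values were below fresh on days 8, 16 and 24.

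**Figure D1:**
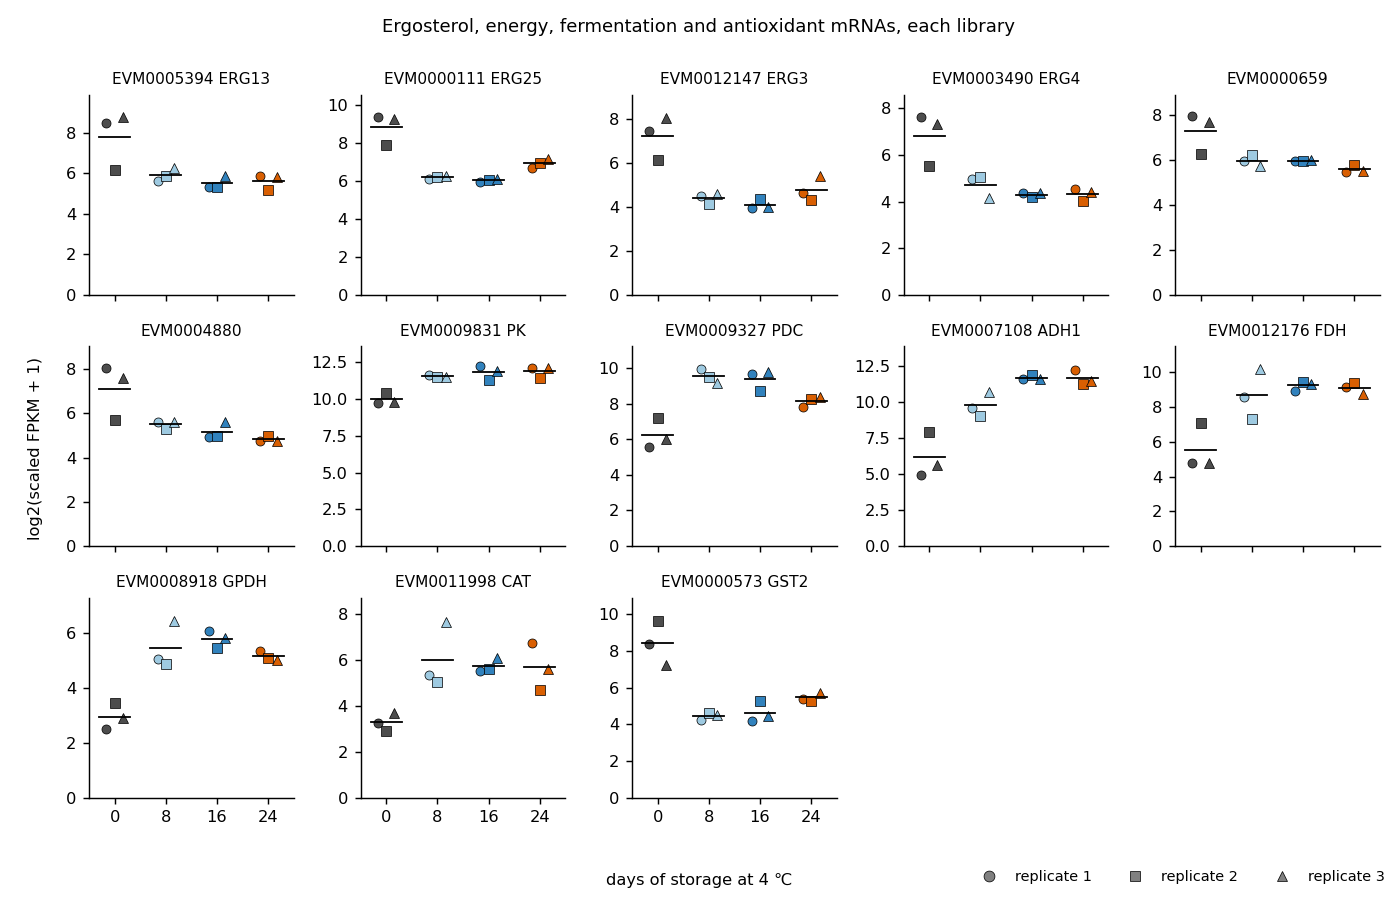
Expression of the 13 enzyme mRNAs the study names, as log2(scaled FPKM + 1) against days of storage; each point is a library, its shape the replicate number and the bar the group mean. The 6 ergosterol mRNAs and GST2 are low and the 5 energy and fermentation mRNAs and CAT are high on day 24, and the second fresh library (square) lies nearest to the stored ones for the 6 ergosterol mRNAs and for PK, PDC, ADH1, FDH and GPDH.

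The mRNAs chosen for RT-qPCR had all kept their early direction. Besides ERG25 they carry no product name in the sources used here, and they too were picked on these samples. EVM0013078 fell the most of them, being at 328, 269 and 209 scaled FPKM when fresh and 19.6, 13.5 and 21.1 on day 24 (log2 fold change -3.82, limma adjusted p = 0.000241). EVM0005628 had a log2 fold change of -1.41 on day 24, against -2.27 on day 8 and -2.11 on day 16. The 3 that were higher had smaller fold changes on day 24 than on both earlier days. EVM0001829 had 14.2 to 16.4 when fresh, 82.0 to 124 on days 8 and 16 and 47.9, 39.5 and 40.7 on day 24. Its log2 fold change was 1.42 (limma adjusted p = 0.000487), and it was below day 8 by -1.21 (limma adjusted p = 0.000267). EVM0006666 and EVM0006175 had log2 fold changes of 1.11 and 1.28 on day 24, of 1.55 and 1.78 on day 8 and of 1.82 and 2.19 on day 16. EVM0006666 fell to 0.97 without the second day 24 library.

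Over the whole table, 316 mRNAs were DE and higher and 447 DE and lower on all of days 8, 16 and 24. The 3 comparisons share the fresh libraries, so that this count is not one of independent lists. Of the 316, the change was smaller on day 24 than on both earlier days for 153 and larger for 90, and of the 447 it was smaller for 238 and larger for 134. In direct comparison most of these mRNAs could not be set apart from the earlier days: 242 of the 316 and 361 of the 447 were DE on day 24 against neither day 8 nor day 16, where 23.6% and 18.6% of all mRNAs were DE. A partial return, DE on day 24 towards the fresh level against both earlier days, was found for 20 higher and 47 lower mRNAs, and for 13 and 32 without the third day 24 library. Without the second fresh library 512 mRNAs were higher and 682 lower throughout.

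Only 7 mRNAs moved further from the fresh level against both earlier days, and all 7 are named here because they are few. With the third day 24 library left out 1 rose and 4 fell further, and EVM0010399 was no longer DE on all 3 days. Of those that rose further, EVM0006274 had 0.339, 1.42 and 0.812 scaled FPKM when fresh, 2.7 to 8.27 on days 8 and 16 and 74.6, 29.0 and 64.9 on day 24. EVM0010399 stood at 2849, 2595 and 3073 on day 24 against 172 to 433 when fresh, and EVM0004248 at 8.88, 17.6 and 14.2 against 0.773 to 1.59. All 3 had day 24 libraries above every other library. Of those that fell further, EVM0005041 dropped from 1665, 1416 and 1138 to 56.4, 62.1 and 29.4, EVM0006903 from 118 to 244 down to 14.1 to 20.0, EVM0007904 from 88.8 to 123 down to 11.2 to 15.1, and EVM0008822 from 31.2 to 53.9 down to 2.24 to 3.99. Their log2 fold changes against fresh were -4.86, -3.37, -2.78 and -3.52 (limma adjusted p of 0.000728 or less).

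The largest lasting rises that met the naming rule started from low fresh levels. EVM0009475 had 0.822, 1.21 and 1.01 scaled FPKM when fresh, 22.9, 6.18 and 483 on day 8, 979, 183 and 604 on day 16 and 1955, 1257 and 1729 on day 24. Each library of day 24 exceeded every earlier library, and the log2 fold change was 9.66 ± 1.17 (SE; limma adjusted p = 0.000503). EVM0000549 and EVM0007363 rose as far against fresh, with log2 fold changes of 9.51 and 9.16, but from day 16 to day 24 they changed by -0.46 and -1.23, neither DE (limma adjusted p = 0.693 and 0.221). EVM0007363 was at 10444, 5523 and 11186 on day 16 and 4086, 2734 and 4448 on day 24, so that its day 24 libraries lay below those of day 16.

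Among the lasting falls that met the rule, EVM0004047 fell from 1368, 296 and 1306 scaled FPKM when fresh to 6.05, 7.19 and 8.75 on day 24, a log2 fold change of -6.62 ± 0.781 (SE; limma adjusted p = 0.000444). The day 24 libraries were close together, while the second fresh library lay well below the others. EVM0006030 (139.9, 52.8 and 1035 when fresh) and EVM0012413 (173, 2120.1 and 293) had fresh libraries even further apart, so that their log2 fold changes of -6.05 and -6.03 have standard errors of 1.3 and 1.16. On day 24 they were at 0.676 to 6.48 and 4.99 to 8.80. EVM0012413 stayed DE on day 24 but was no longer DE on all 3 days without the third day 24 library.

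By the difference in scaled FPKM, the 3 most increased mRNAs on day 24 were EVM0011517, EVM0000336 and EVM0011102. EVM0011517 had 1419.8, 1830.2 and 423 when fresh and 18121, 11474 and 19252 on day 24, a log2 fold change of 3.94 (limma adjusted p = 0.00756). EVM0000336 went from 216, 478 and 92.0 to 17414, 9389.7 and 17076, a log2 fold change of 6.05 (limma adjusted p = 0.00313). EVM0011102 was at 1359, 2513 and 1482 when fresh, at 407 to 2308 on days 8 and 16 and at 20792, 6904 and 16213 on day 24, so that it overlapped the fresh range until day 16 (log2 fold change 2.95 on day 24, limma adjusted p = 0.00925). The most decreased were EVM0001610, EVM0007431 and EVM0000206. EVM0001610 fell from 7541, 21840.3 and 13666 to 2017, 2576 and 1732 (log2 fold change -2.65, limma adjusted p = 0.013), which missed the threshold without the first or the third day 24 library (limma adjusted p = 0.0558 and 0.084). EVM0007431 fell from 10651, 8315 and 5336 to 109, 235 and 87.3 (log2 fold change -5.88, limma adjusted p = 0.000172), and EVM0000206 from 4790.2, 10116 and 3758 to 169, 355 and 372 (log2 fold change -4.33, limma adjusted p = 0.000306).

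**Figure D2:**
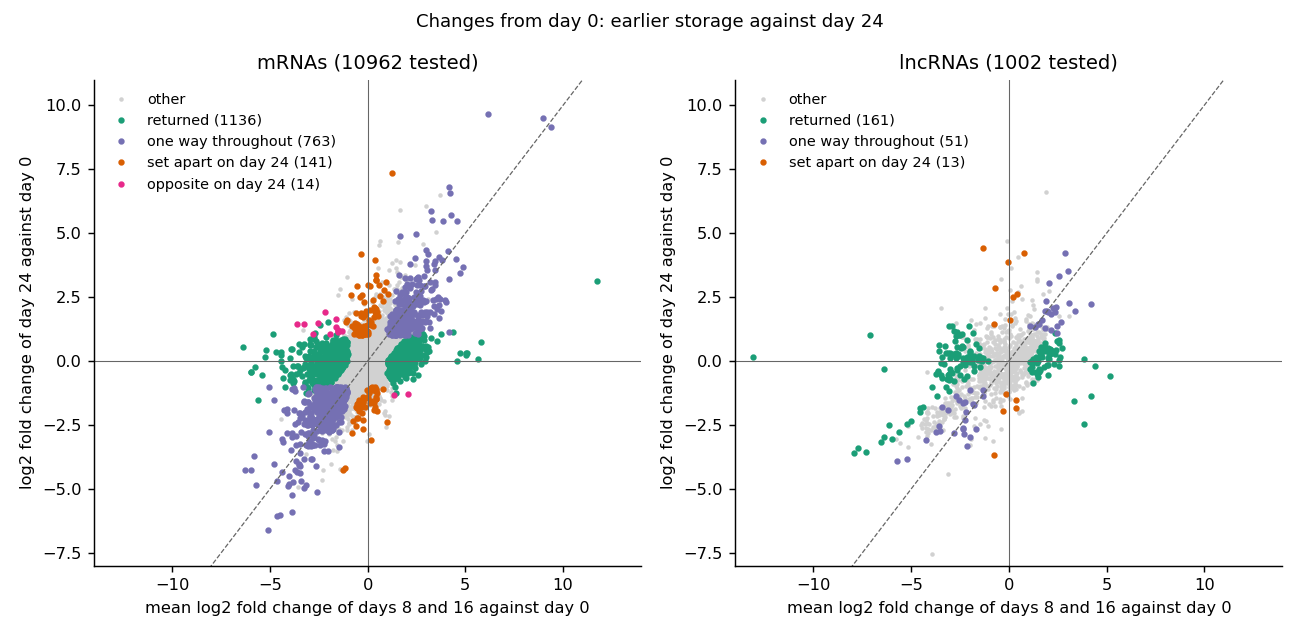
Log2 fold change of day 24 against day 0 (vertical) and mean log2 fold change of days 8 and 16 against day 0 (horizontal) for each tested mRNA and lncRNA, on the log2(scaled FPKM + 1) scale; the dashed line marks equal change, and both axes use the same fresh libraries. The 763 mRNAs and 51 lncRNAs changed in the same direction throughout lie along the diagonal, the 1136 and 161 returned ones mostly near 0 on the vertical axis, and the 141 and 13 set apart on day 24 near 0 on the horizontal axis; RNAs listed at 0 in a whole group are placed by the pseudocount.

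Changes that appeared only at the end were fewer. On day 24 but on neither earlier day, 269 mRNAs were DE and higher and 193 DE and lower, yet an mRNA that missed the threshold earlier may have begun to change. For 108 of the 269 and 91 of the 193, day 24 was DE against neither day 8 nor day 16. The stricter group, which was also DE in the same direction against day 8 and against day 16, held 89 higher and 52 lower mRNAs and is called set apart here. Without the first day 24 library it held 45 and 31. It held 65 and 41 without the third, of which 55 and 33 are among the 89 and 52.

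Among the mRNAs set apart upwards, EVM0007112 had the largest change. It was at 31.5, 5.32 and 2.23 scaled FPKM when fresh, 1.54 to 131 on day 8, 10.7 to 61.8 on day 16 and 2495, 580.1 and 1938 on day 24. The lowest day 24 library was above every earlier library, and the log2 fold change was 7.34 ± 1.34 (SE; limma adjusted p = 0.00381). EVM0000536 rose from 54.2, 189 and 72.4 when fresh to 2102, 1196 and 1902, after 18.5 to 133 on days 8 and 16 (log2 fold change 4.20, limma adjusted p = 0.00131). EVM0007634 rose from 55.1, 67.4 and 15.6 to 778, 417 and 708, after 18.3 to 136 (log2 fold change 3.94, limma adjusted p = 0.000789). In all 3 the second library was the lowest of day 24.

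The named mRNAs set apart downwards were not all firm. EVM0005728 was at 1103, 201 and 215 scaled FPKM when fresh, 50.8 to 649.5 on days 8 and 16 and 43.4, 9.69 and 15.5 on day 24 (log2 fold change -4.20, limma adjusted p = 0.0115). EVM0004055 fell from 32.3, 58.7 and 107 to 2.40, 15.8 and 5.01 (log2 fold change -3.10, limma adjusted p = 0.0352), and missed the threshold without the first or the third day 24 library or the second or the third fresh library (limma adjusted p between 0.0516 and 0.13). EVM0004940 fell from 13.6, 87.9 and 8.91 to 1.89, 2.08 and 3.28 (log2 fold change -2.80, limma adjusted p = 0.0105), with a log2 fold change of -1.01 on day 16 that was not DE. None of these 3 was set apart without the third day 24 library, while EVM0005728 and EVM0004940 remained DE against day 0. EVM0011871, named after its values were seen, was at 22.2, 13.4 and 20.6 when fresh, at 10.6 to 12.6 in 5 of the 6 libraries of days 8 and 16, and was listed at 0 in the third library of day 8 and in all 3 of day 24. EVM0011531 was also listed at 0 throughout day 24, after 8.63 to 13.9 when fresh, but was at or near 0 from day 8 on.

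A small set of mRNAs passed the fresh level and came out on the other side. For 12 mRNAs, days 8 and 16 were DE below day 0 and day 24 was DE above it. EVM0007846 had 285, 232 and 186 scaled FPKM when fresh, 13.4, 7.77 and 31.6 on day 8, 23.8, 25.5 and 15.7 on day 16 and 718, 446 and 780.1 on day 24. The 4 days form separate ranges apart from days 8 and 16, which overlap. EVM0011265 was at 47.8, 24.4 and 40.9 when fresh, 2.95 to 11.7 on days 8 and 16 and 142, 141 and 143 on day 24, with a log2 fold change of -2.63 on day 8 and 1.94 on day 24 (limma adjusted p = 0.000222 and 0.00507). The other 10 were EVM0000784, EVM0001983, EVM0004268, EVM0007292, EVM0007407, EVM0008422, EVM0010192, EVM0010668, EVM0011163 and EVM0011474, with log2 fold changes on day 24 of 1.05 to 1.64. Without the third day 24 library 8 of the 12 kept both calls and the other 4, EVM0004268, EVM0007292, EVM0007846 and EVM0010668, were no longer DE against day 0.

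The opposite order was seen in 2 mRNAs. EVM0012645 had 63.1, 38.1 and 44.4 scaled FPKM when fresh, 172 to 231 on days 8 and 16 and 21.9, 14.6 and 20.7 on day 24. No library of day 24 overlapped any other group, and the log2 fold change against fresh was -1.29 (limma adjusted p = 0.00193). EVM0011031 had 5, 4.14 and 12.6 when fresh, 11.4 to 32.4 on days 8 and 16 and 2.22, 2.02 and 1.81 on day 24 (log2 fold change -1.31, limma adjusted p = 0.0203), a call that did not hold without the third day 24 library.

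Many early changes of mRNAs had gone back by day 24. Of the 1282 mRNAs DE and higher on both days 8 and 16, 964 were not DE on day 24, and 552 of these were also DE downwards from day 8 and from day 16, which is called returned here. Of the 1570 DE and lower on both days, 1111 were not DE on day 24 and 584 had returned. The other 412 and 527 were neither DE against fresh nor shown to differ from both earlier days. Among the returned mRNAs, 443 of 552 and 429 of 584 lay within 0.5 of the fresh mean on the log2 scale. Without the third day 24 library 528 and 562 had returned, 507 and 530 of them the same mRNAs. Without the second fresh library 540 and 590 had returned, while 512 and 682 were changed throughout. Which outcome was the more frequent turned with this library among the lower mRNAs, but not among the higher ones.

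Among returned mRNAs that had been lower, EVM0003636 had the largest early fall by the naming rule. It had 403, 386 and 265 scaled FPKM when fresh, 1.1, 0.752 and 2.56 on day 8, 7.13, 5.18 and 7.22 on day 16 and 614, 398 and 518 on day 24. The fresh and day 24 libraries overlap, and day 24 was above day 8 by 7.74 ± 0.280 on the log2 scale (SE; limma adjusted p = 1.02e-07). EVM0007778 had 88.0, 36.5 and 71.8 when fresh and 45.0, 45.0 and 46.1 on day 24 and was listed at 0 in all 6 libraries between, the single mRNA so listed that reached 10 in every fresh and day 24 library. In the other direction, EVM0009353 went from 0 to 0.265 when fresh to 13.7 to 111 on days 8 and 16 and was at 0, 0 and 5 on day 24. EVM0012259 was at 21628 to 56708 on days 8 and 16, and on day 24 at 1070, 0 and 1053. It was listed at 0 in 2 fresh libraries and at 1634 in the second, so that the groups overlap and its log2 fold change of 3.14 on day 24 has a standard error of 2.93.

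**Figure D3:**
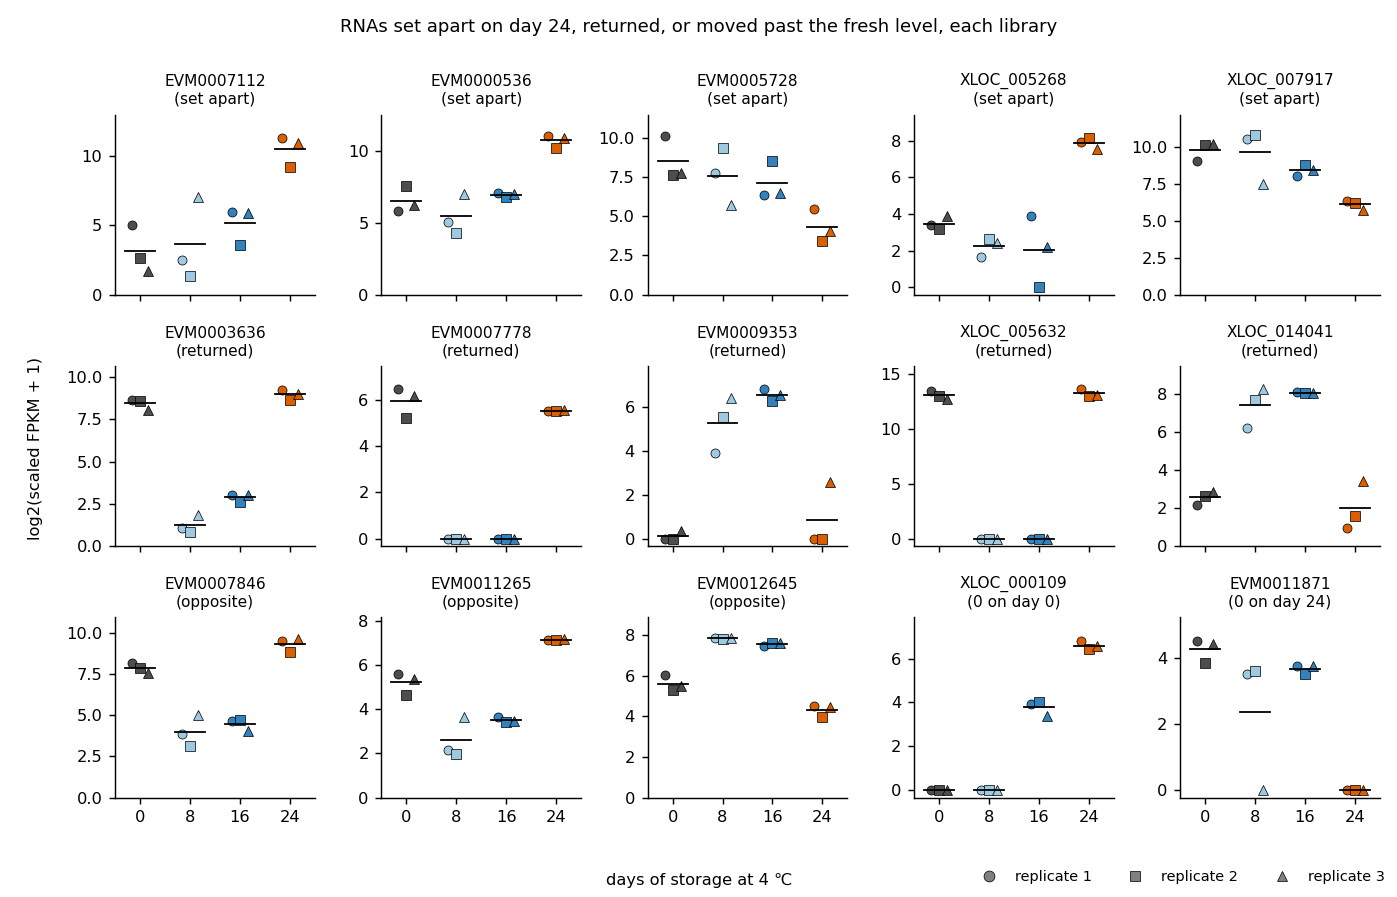
Expression of 15 RNAs that were set apart on day 24, had returned to the fresh level, had passed it, or were listed at 0 in a whole group, as log2(scaled FPKM + 1) against days of storage; points are libraries, shapes replicate numbers and bars group means. EVM0007778 and XLOC_005632 are at 0 in all libraries of days 8 and 16 and back at the fresh level on day 24, while EVM0000536 and XLOC_005268 leave the range of the earlier days only on day 24.

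Among lncRNAs, 103 (10.3%) were DE on day 24, 56 higher (5.59%) and 47 lower (4.69%), against 499 (49.8%) on day 8 and 471 (47.0%) on day 16. Without the third day 24 library the number was 224 (22.4%), with 77 higher (7.68%) and 147 lower (14.7%). In both fits 89 lncRNAs were DE, 0 of them in opposite directions. Without that library 14 were lost and 23 higher and 112 lower ones were gained. Without the first day 24 library instead, 22 were higher and 22 lower, and without the first fresh library 43 and 19. The direction that was more frequent among DE lncRNAs therefore turned with single libraries. Over the 1002 lncRNAs the median log2 fold change was -0.0796 with all libraries and -0.0344 without the third of day 24.

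The 112 lncRNAs called lower only without the third day 24 library were then compared by library. For all 112, the first and second libraries of day 24 lay below every fresh library. For 105 of them the third lay at or above the lowest fresh library. Both counts follow largely from how the 112 were picked and are no test of the third library. Their levels were low, with a mean below 10 scaled FPKM over the 12 libraries for 85. Of the 147 lower lncRNAs, 40 had day 24 libraries wholly below the fresh ones once the third was counted.

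The position of this library was then described by level, with the 265 lncRNAs and 1570 mRNAs that were DE and lower on both days 8 and 16 grouped by their mean over the fresh libraries. This grouping was chosen after the data were seen and takes no day 24 value. Among the 177 lncRNAs with a fresh mean from 5 to under 50 scaled FPKM, the median log2 difference from the fresh mean was -1.99 and -2.55 in the first and second libraries of day 24 and -0.0492 in the third. Among the 85 with a fresh mean of 50 or more it was -0.978, -0.803 and -0.468, so that the libraries lay closer together but the third was still the nearest to fresh. Below 5 there were 3 lncRNAs. The 209 mRNAs with a fresh mean under 5 gave -1.13, -1.22 and 0.107, and here too the third library alone lay among the fresh ones. The 523 mRNAs from 5 to under 50 gave -0.863, -0.775 and -0.786 and the 838 at 50 or more -0.515, -0.459 and -0.546, without such a gap. Of the RNAs above 0 in every fresh library and listed at 0 in all of days 8 and 16, the third day 24 library listed 80 of 82 lncRNAs and 1227 of 1275 mRNAs above 0, the first 46 and 388, and the second 22 and 104. These are descriptions over RNAs of the same libraries, and the cause of the departure was not tested.

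**Figure D4:**
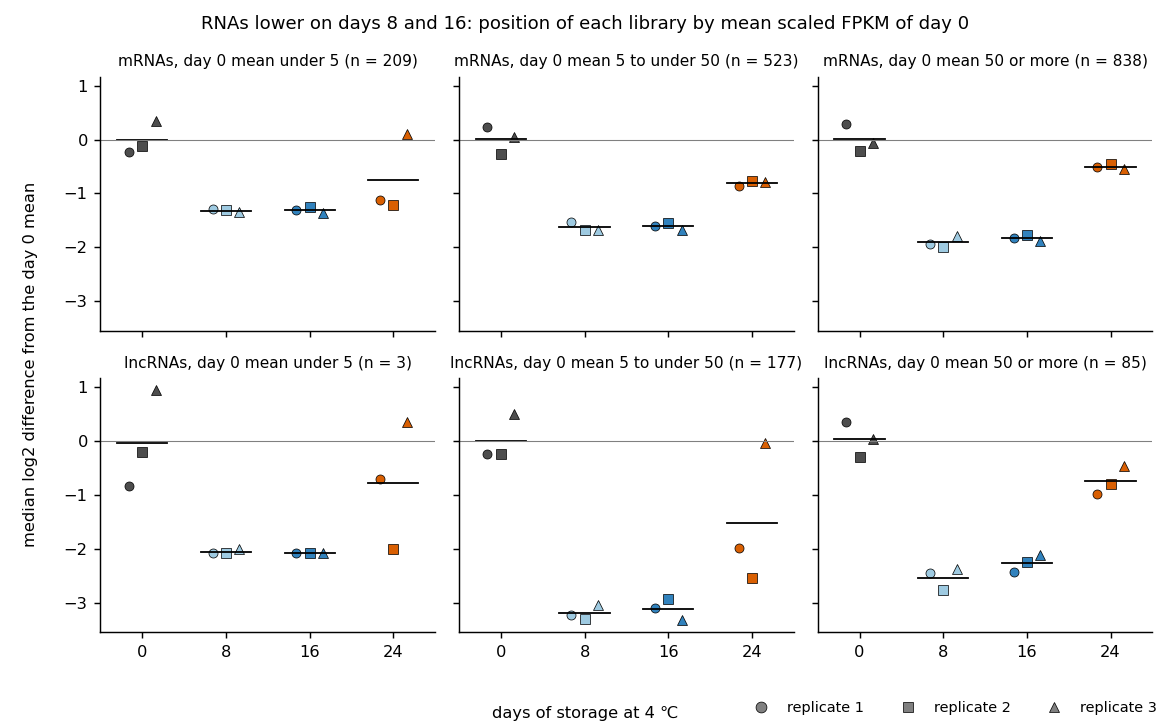
Median log2 difference of each library from the day 0 mean, over the mRNAs (upper row) and lncRNAs (lower row) that were DE and lower on both days 8 and 16, split by the mean scaled FPKM of the fresh libraries; points are libraries, shapes replicate numbers and bars group means, and the panel of lncRNAs under 5 holds 3 lncRNAs. The third day 24 library (triangle) lies among the fresh libraries at 0.107 for mRNAs under 5 and at -0.0492 for lncRNAs from 5 to under 50, and beside the other day 24 libraries for mRNAs from 5 upwards.

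**Figure D5:**
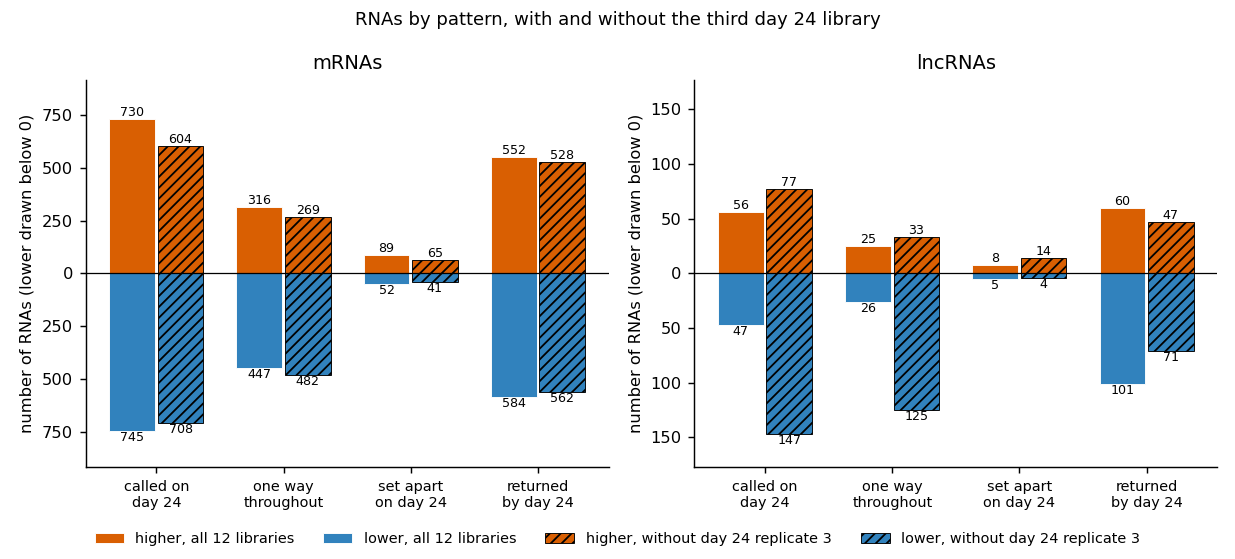
Number of mRNAs and lncRNAs that were DE on day 24 and that were changed throughout, set apart on day 24 or returned by day 24, with all 12 libraries (plain bars) and without the third day 24 library (hatched bars); higher RNAs are drawn above 0 and lower ones below. Without that library the higher mRNAs fall from 730 to 604, and the mRNAs set apart from 89 and 52 to 65 and 41. The lower lncRNAs rise from 47 to 147 and those lower throughout from 26 to 125.

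Changed in the same direction on all 3 days were 25 higher and 26 lower lncRNAs. The numbers were 33 and 125 without the third day 24 library, with 24 and 22 lncRNAs shared between the fits, and the lasting falls differed most between the fits. Of the 125, 117 were DE on day 24 against neither day 8 nor day 16, where 36.7% and 26.7% of all lncRNAs were DE with all libraries in the fit. Without the first fresh library 24 were higher and 6 lower throughout, without the first day 24 library 14 and 9, and without the second 20 and 13.

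The lncRNAs named here for lasting changes had a mean of at least 10 scaled FPKM by the naming rule. XLOC_011381 had 1483, 339 and 195 scaled FPKM when fresh and 6961, 7933 and 11349.6 on day 24, the second largest increase of any DE lncRNA that met the naming rule. The groups do not overlap, and the log2 fold change was 4.21 ± 0.803 with all libraries (SE; limma adjusted p = 0.00665) and 4.01 without the third (limma adjusted p = 0.0104). XLOC_004655, a listed trans partner of ADH1, rose from 9.30, 7.11 and 24.3 to 243, 91.1 and 145 (log2 fold change 3.53, limma adjusted p = 0.0015). XLOC_013704 fell from 251, 176 and 62.4 to 4.03, 9.39 and 17.9 (log2 fold change -3.83, limma adjusted p = 0.00937, and 0.0655 with a pseudocount of 0.1). XLOC_013418 fell from 2921, 1402 and 1400.5 to 617, 645 and 421 (log2 fold change -1.70, limma adjusted p = 0.0117).

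The lncRNAs paired in cis with enzymes had the direction of their gene. XLOC_002302, in cis to ERG13, had 1732, 395 and 268 scaled FPKM when fresh and 66.3, 53.8 and 48.3 on day 24, with a log2 fold change of -3.33 (limma adjusted p = 0.00459). Both XLOC_002302 and ERG13 were lower in the second fresh library than in the first. In the third, XLOC_002302 was at its lowest fresh value and ERG13 at its highest. XLOC_002861, in cis to FDH, had 2424, 3354 and 1888 when fresh and 27662, 8205 and 16499 on day 24, the largest increase of any DE lncRNA that met the naming rule (log2 fold change 2.64, limma adjusted p = 0.0151). It was not DE on day 8 (1.25, limma adjusted p = 0.093). Its day 24 call was lost without the first library of that day (limma adjusted p = 0.0679). The publication, by RT-qPCR, reports this lncRNA too as up-regulated at every storage time after harvest. Both pairs were chosen by the study on these samples. Whether strand was used in estimating FPKM is not stated, although the library kit keeps strand, so the values of a lncRNA may include reads of a gene on the opposite strand.

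The other lncRNAs measured by RT-qPCR for the publication mostly kept their change. XLOC_004061 rose from 74.2, 69.1 and 72.5 scaled FPKM to 414, 372 and 268, after 982 to 1640 on days 8 and 16. It thus kept a log2 fold change of 2.25 ± 0.222 (SE; limma adjusted p = 0.000116) while it was below day 8 by -1.77 (limma adjusted p = 0.000143). XLOC_002934 fell from 100.2, 41.7 and 60.3 to 7.02, 10.5 and 8.85 (log2 fold change -2.73, limma adjusted p = 0.0132), a call lost without the first fresh or first day 24 library (0.0615 and 0.0537). XLOC_003506 fell from 63.3, 33.7 and 26.2 to 3.44, 3.76 and 5.09 (log2 fold change -2.96, limma adjusted p = 0.00459). XLOC_008354 was DE on day 24 alone, at 3552, 1448 and 2905 against 409 to 561 when fresh (log2 fold change 2.39, limma adjusted p = 0.0151). It was not DE against day 8 or day 16, nor against day 0 without the first day 24 library (limma adjusted p = 0.0714). Its rise is therefore not shown to have appeared only on day 24. By RT-qPCR, the publication reports this lncRNA as up-regulated at every storage time after harvest. XLOC_011327 had 90.6, 145 and 154 when fresh and 234, 281 and 201 on day 24 and fell just short of the fold threshold with all libraries (0.90, limma adjusted p = 0.0359), while it passed at 1.01 without the third (limma adjusted p = 0.0179).

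The trans partners of the enzymes were picked by the study from these same libraries. Of the 32 trans lncRNAs of the ergosterol mRNAs, 18 were DE and lower on day 24 (16 without the third day 24 library), against 31 on day 8 and 32 on day 16. The share over all lncRNAs tested also fell, from 49.8% on day 8 and 47.0% on day 16 to 10.3% on day 24 in either direction. The partners had a median log2 fold change of -1.62 on day 24 and -2.14 and -2.11 earlier. Of the 29 trans lncRNAs of the energy, fermentation and antioxidant mRNAs, 14 were higher and 5 lower on day 24, against 19 higher and 8 lower on day 16. All 6 trans lncRNAs of ADH1 were higher on day 24, with log2 fold changes of 1.96 to 3.53. For PDC, 2 of 3 were higher, and all 3 were DE below both earlier days, while without the third day 24 library 3 of 3 were higher and 1 of 3 was DE below each earlier day.

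Set apart on day 24 were 13 lncRNAs, 8 higher and 5 lower, of which 5 and 2 were also set apart without the third day 24 library, where the numbers were 14 and 4. The higher ones were XLOC_000417, XLOC_002770, XLOC_002803, XLOC_004789, XLOC_005268, XLOC_005465, XLOC_009131 and XLOC_009402, and the lower ones XLOC_001021, XLOC_002103, XLOC_004793, XLOC_007917 and XLOC_008048. The count was 7 without the second library of day 16, 6 without the first of day 24 and 23 without the third of day 8. With scaling factors from the lncRNAs themselves it was 16 higher and 3 lower.

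XLOC_005268 had 9.43, 8.07 and 13.6 scaled FPKM when fresh, 0 to 13.9 on days 8 and 16 and 245, 285 and 188 on day 24. The 3 late libraries lay far above all 9 others, with a log2 fold change of 4.41 ± 0.747 (SE; limma adjusted p = 0.00422) and of 4.58 without the third library. With a pseudocount of 0.1 it missed the threshold (limma adjusted p = 0.056). XLOC_009402 rose from 0.850, 0.509 and 2.39 to 61.5, 39.2 and 24.2 (log2 fold change 4.24, limma adjusted p = 0.00459), and XLOC_009131 from 64.5, 77.4 and 79.2 to 616, 419.7 and 365 (log2 fold change 2.62, limma adjusted p = 0.0013). XLOC_007917 fell from 515, 1110.3 and 1169 when fresh to 80.3, 72.7 and 52.1, a decrease in scaled FPKM second to that of XLOC_013418 among DE lncRNAs that met the naming rule. Day 16 lay between, at 257, 429 and 342, and the log2 fold change on day 24 was -3.68 (limma adjusted p = 0.00563). XLOC_007917 and XLOC_008048 were no longer set apart without the third day 24 library, though still DE against day 0. XLOC_008048 fell from 18.5, 34.6 and 22.6 to 3.59, 8.30 and 5.74 (log2 fold change -1.94, limma adjusted p = 0.0165), a call lost without the second fresh or first day 24 library (0.0501 and 0.0781). XLOC_004793 fell from 81.2, 90.3 and 90.8 to 28.2, 21.2 and 22.0 (log2 fold change -1.84, limma adjusted p = 0.0015). XLOC_000109, named after its values were seen, was listed at 0 in all libraries of days 0 and 8, at 14.1, 15.0 and 9.51 on day 16 and at 112, 84.2 and 92.7 on day 24. It was the single lncRNA listed at 0 in every fresh library that reached 1 in every day 24 library.

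Of the 135 lncRNAs DE and higher on days 8 and 16, 60 had returned by day 24, and of the 265 DE and lower, 101. Leaving out the third day 24 library, 47 and 71 had returned. With quantile normalization the split was 54 and 44, and with factors from the lncRNAs 42 and 118. For 17 of the 101, the log2 fold change of day 24 was still -1 or lower and merely failed the test against day 0, and without the third library this held for 3 of the 71. Among mRNAs it held for 5 of the 584, and for 14 of the 562 without that library.

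Among returned lncRNAs that had been lower, XLOC_005632 had the largest early fall by the naming rule. It had 11635, 8345 and 6793 scaled FPKM when fresh, was listed at 0 in all 6 libraries of days 8 and 16 and had 12825, 8420.1 and 8668 on day 24. The fresh and day 24 libraries overlap, with a log2 fold change of 0.17 between them (limma adjusted p = 0.652). It was the single lncRNA listed at 0 in all of days 8 and 16 that reached 10 in every fresh and day 24 library, the same pattern as EVM0007778 among mRNAs. XLOC_014041 made the opposite course, from 3.54, 5.31 and 6.21 when fresh to 74.8 to 307 on days 8 and 16 and 0.949, 1.99 and 9.82 on day 24.

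XLOC_003962 and XLOC_008798, lncRNAs named in the publication for their course, ended above the fresh level without passing the test against it. The publication, which used DESeq2, counts both as up-regulated in group D. XLOC_003962 had 325, 164 and 269 scaled FPKM when fresh, 19.1 to 73.2 on days 8 and 16 and 612, 494 and 442 on day 24. Its day 24 libraries lay above all others, but the log2 fold change against fresh was 1.07 (limma adjusted p = 0.0907), and 1.18 without the third library (limma adjusted p = 0.104). It passed with array weights and without the second library of day 8 (limma adjusted p between 0.0409 and 0.0433). XLOC_008798 had 9.01, 10 and 15.4 when fresh and 47.6, 22.2 and 28.0 on day 24, a log2 fold change of 1.39 (limma adjusted p = 0.122). Its day 24 libraries too lay above all fresh ones, and it passed with quantile normalization (limma adjusted p = 0.00637).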

How the data were processed

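RNA-seq of 12 libraries from *S. latifolia* fruiting bodies was used, 3 each of days 0, 8, 16 and 24 at 4 ℃. The authors depleted ribosomal RNA and used a directional library kit. Tools in the submitters' processing notes are cutadapt 2.7, FastQC 0.11.8, HISAT2 2.1.0 and StringTie 1.3.3b. The deposited values are FPKM of 13103 mRNAs and 1003 lncRNAs, normalized by the authors for transcript length and mapped reads. No counts were used, so the DESeq2 test of the methods was not repeated and no counting interval can be given. All value columns were mapped to a library by name.

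Each library was scaled by the median ratio of its mRNAs above 0 in all 12 libraries to their geometric means. The limma test (version 3.58.1, R 4.3.3) used log2(scaled FPKM + 1) and all 4 days in 1 model for each class of RNA, with a trended prior, and p-values were adjusted by Benjamini-Hochberg over the class. Filter and call thresholds are those given with the results.

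The RNAs named are those of the study's lists and, with a mean of at least 10 scaled FPKM and no overlap of libraries, the 3 mRNAs and 2 lncRNAs with the largest change in each group and direction (2 and 1 for returned ones) and the largest differences in scaled FPKM. LncRNAs had to be called without the third day 24 library too. Members of groups of 14 or fewer were named beyond this, after their values were seen. The members and lists were chosen with earlier results of these data known. For lncRNAs, day 0 and day 24 libraries of the same number deviated together (r of deviations 0.345, 0.180 and 0.388 over the lncRNAs). For mRNAs the first and second numbers did so too, but not the third (0.351, 0.148 and -0.0371). Between days 0 and 24, mRNA pairs of unlike number ran from -0.282 to 0.122. Unlike numbers of other days reached as much, with 0.3415 between the first library of day 8 and the second of day 24. So the mRNA values do not set same-numbered libraries clearly apart. The replicate numbers come from the labels, which state no shared batch.

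The fit was tested on simulated data with known changes. Results were recomputed with other scaling (quantile normalization, lncRNA factors, none), other filters (none, or mean FPKM 5 or more), a pseudocount of 0.1, array weights, the replicate number as a block, only the 2 groups in the fit and each library left out. The fit of 2 groups with the block and the grouping by fresh level were added after seeing the data. Python 3.11.15 and matplotlib 3.10.9 were used. Sequences and gene annotation were not used here.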

Additional observations from a re-analysis of the deposited data

Results flagged for a closer look

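The following RNAs were picked out because day 24 differed from day 8, and from day 16 in the same direction. Each difference was tested directly between the 2 days in the same limma fit. Trans partners and RNAs named only as members of small groups are not listed here. Except for PDC, EVM0001829 and XLOC_004061, all were set apart or returned. Those groups are defined by these same comparisons, so for them the listing adds no further test. Each value is the log2 difference of day 24 from day 8. Read quality differed between these days in the same way, and its part was not tested.

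Higher on day 24 than on day 8 were the mRNAs EVM0003636 (7.74), EVM0007112 (6.83), EVM0007778 (5.53), EVM0000536 (5.27), EVM0007634 (4.43) and EVM0011102 (4.1). The lncRNAs were XLOC_005632 (13.26), XLOC_005268 (5.66), XLOC_009402 (4.2), XLOC_003962 (3.6) and XLOC_008798 (3.2). EVM0007778 and XLOC_005632 were listed at 0 in all libraries of days 8 and 16, so the size of their difference depends on the pseudocount.

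Lower on day 24 than on day 8 were the mRNAs EVM0012259 (-8.46), EVM0009353 (-4.41), EVM0004055 (-3.76), EVM0005728 (-3.28), EVM0004940 (-2.23), PDC, EVM0009327 (-1.36), and EVM0001829 (-1.21). The lncRNAs were XLOC_014041 (-5.42), XLOC_007917 (-3.51), XLOC_008048 (-1.89) and XLOC_004061 (-1.77).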

How the results depend on the processing

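The number of DE lncRNAs on day 24, 103, was 270 with array weights and 222 with quantile normalization, and 44 to 224 with 1 library left out. The lncRNAs changed throughout, 51, were 179 and 112 under the same settings and 23 to 158 with 1 library left out. Those set apart, 13, were 33 and 31, and 6 to 23. Those returned, 161, were 98 with quantile normalization. Array weights gave the third day 24 library the low weight of 0.379 for lncRNAs, against 1.89 and 1.01 for the others of that day. The third library of day 8 had a lower one still, 0.327. For mRNAs the lowest weights were those of the second fresh library (0.183) and the third of day 8 (0.198), while the third of day 24 had 1.81. Of the 224 lncRNAs DE without that library, a further left-out library gave 136 to 253, and quantile normalization gave 110 higher and 113 lower against 77 and 147. The mRNAs changed throughout, 763, were 567 to 1194 with 1 library left out, and those set apart, 141, were 76 to 181. The other total counts stayed within 1.5 times, but not all counts by direction: the 147 lncRNAs lower without the third day 24 library were 85 with a mean FPKM of at least 5, the 26 lower throughout were 16 and the 8 set apart upwards 4 with a pseudocount of 0.1, the 52 mRNAs set apart downwards were 31 to 79 with 1 library left out, and the 101 lncRNAs returned after a fall 66 to 97. The cause of these differences was not tested. With the replicate number as a block, 105 lncRNAs and 1438 mRNAs were DE, and with only the 2 groups and the block 111 and 1124, where PK, EVM0000659, EVM0004880, EVM0004940, EVM0001610 and EVM0011102 were no longer called. The block changed no call of the 19 lncRNAs refitted. Of 1258 refits of named RNAs 33 lost and 6 gained the call, and 1219 kept their side of the threshold. The sign changed in 5 refits, all of RNAs not called on day 24: EVM0009353 was -0.11 without the third day 24 library, XLOC_014041 0.42 and XLOC_005632 -0.11 with quantile normalization, and XLOC_005632 -0.01 without the third fresh library and -0.03 without the first of day 24. The depth behind single values is unknown, which limits all RNAs of low FPKM.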
